A study of Rattus norvegicus with 6 samples.

Results

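The most peak-poor stretches of the rat autosomes were examined for 3 histone lactylation marks profiled by CUT&Tag, H3K9la, H4K8la and H4K16la. Chromosomes 1 to 20 were divided into 1 Mb windows, each peak was assigned by its midpoint, and windows were ranked by the total number of peaks in 6 peak lists. Of 2464 windows with a peak, the 261 with 8 peaks or fewer were taken as peak-poor, which is the bottom 10% with ties kept. They held 1254 of the 308787 peaks on these chromosomes (0.406%). The low totals are therefore given by the choice of windows and are no result. The total is the sum of the 6 lists, so the choice can shape how those few peaks split between marks and conditions. Their width and strength were not used in the choice. Overlap was not used either, but it can depend on the density of peaks.

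The cells were wild-type rat tenocytes, the fibroblast-like cells of tendon, in culture. Each mark was profiled once without treatment (control) and once after 20 mM lactate, so 6 groups had 1 library each. In CUT&Tag, an antibody bound to the mark brings a transposase to the chromatin, and the fragments it releases are sequenced. With 1 library per group there is no replicate check and no test between libraries, and every interval below is a 95% interval that covers counting error only.

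Lactylation attaches a lactyl group, derived from lactate, to a lysine side chain of a histone. Like acetylation, it removes the positive charge of the lysine and has been linked to active genes. Megabase-scale stretches with little active chromatin are a normal feature of mammalian genomes and are often gene-poor, late in replication and attached to the nuclear lamina. No annotation of the build of these files (rn7) was used here, so windows and peaks are given by position, counted from 1, with no gene assigned.

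The peak lists of chromosomes 1 to 20 held 39670 to 61040 peaks. Depth was judged by the genome-wide background, that is the average count of fragments per base that the peak columns imply. It was lowest in H4K8la control (1.32) and highest in H4K16la lactate (2.84), with H3K9la control at 2.17, H3K9la lactate at 1.88, H4K8la lactate at 1.55 and H4K16la control at 1.53.

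The peak-poor windows lay on 19 of the 20 chromosomes, and chromosome 12 had none. Chromosome 13 had the highest share, with 30 of its 107 windows (28.0%), followed by chromosome 15 with 19 of 102 (18.6%), chromosome 14 with 18 of 105 (17.1%) and chromosome 2 with 38 of 247 (15.4%). Chromosome 17 had 1 such window of 87. Peak-poor windows adjoined each other. They formed 129 runs, and 189 of the 261 windows (72.4%) had a peak-poor neighbour. Peak-poor windows made up 10.6% of all windows with a peak. How many neighbours this share alone would give was not tested. Of the 261 windows, 5 were the first window or the last window with a peak on their chromosome. Each of the 20 chromosomes has at most 1 such window at either end, so a low count is given by the layout.

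The longest runs were 11 windows each. On chromosome 13 from 10000001 to 21000000 there were 56 peaks, of which H4K8la had 20 in control and 25 with lactate. On chromosome 2 from 63000001 to 74000000 there were 40 peaks, of which H4K8la had 16 in control and 15 with lactate. The third was 9 windows on chromosome 15 from 65000001 to 74000000, where H3K9la had no peak in control and 8 with lactate, and H4K8la had 12 and 16. A further 6 windows with no peak in any list were met before the last peak of a chromosome. They belong to no group here, since the choice required at least 1 peak.

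H4K8la supplied most of the peaks in the peak-poor windows. In untreated cells it had 368 peaks there, against 53 for H3K9la and 81 for H4K16la. With lactate it had 548, against 119 and 85. H4K8la thus made up 73.0% (70.5 to 75.4) of the peaks in peak-poor windows and 32.7% (32.5 to 32.9) in the other 2203 windows. In those, the 3 marks had nearly equal numbers when both conditions were pooled. The share of H3K9la was 13.7% in peak-poor and 34.6% in other windows, and that of H4K16la 13.2% and 32.7%. Within untreated cells alone the H4K8la share was 73.3% (69.3 to 77.0) in peak-poor windows and 37.2% elsewhere. Within lactate-treated cells it was 72.9% (69.6 to 75.9) and 27.8%. In the other windows H3K9la and H4K16la made up 38.0% and 24.7% in untreated cells, and 30.9% and 41.3% with lactate.

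**Figure D1:**
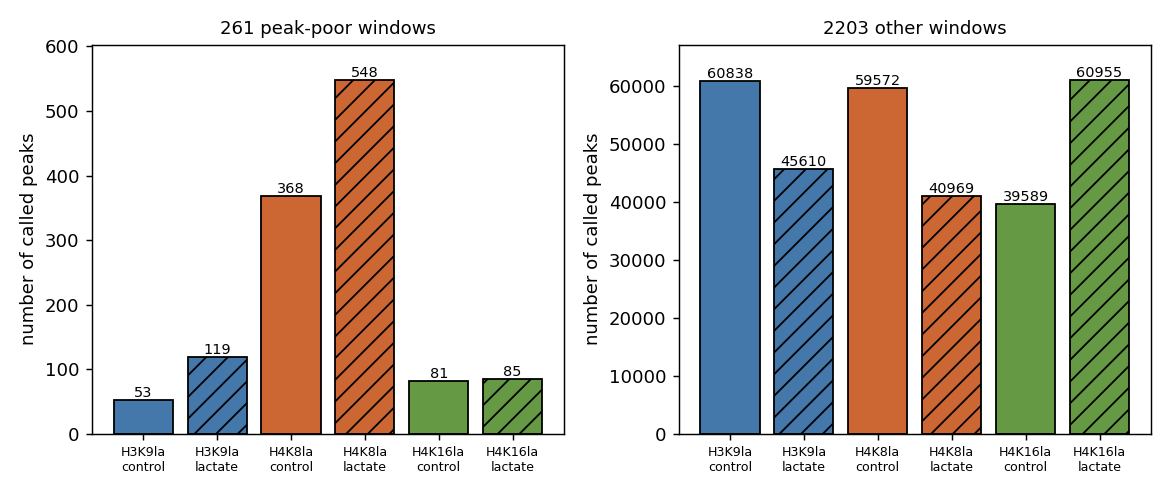
Bars give the number of called peaks in each of the 6 libraries, on the left in the 261 peak-poor windows and on the right in the 2203 other windows, with separate vertical scales and lactate hatched. The H4K8la bars, 368 and 548, stand above all others on the left and not on the right.

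Seen as a share of each list, the peak-poor windows took 0.0870% of the H3K9la control peaks, 0.260% of H3K9la lactate, 0.614% of H4K8la control, 1.32% of H4K8la lactate, 0.204% of H4K16la control and 0.139% of H4K16la lactate. The H4K8la lactate library was the highest and H3K9la control the lowest. The intervals of both H4K8la libraries (0.554 to 0.680 and 1.21 to 1.43) stand apart from all others. Those of H3K9la control (0.0666 to 0.114), H4K16la lactate (0.113 to 0.172), H4K16la control (0.164 to 0.254) and H3K9la lactate (0.218 to 0.311) each overlap the next. Intervals that stand apart are no test between marks, since each is of 1 library whose peaks entered the choice of windows. H4K8la control also had the lowest genome-wide background (1.32). The authors' lists end at a q of 0.05. Under the caller's model, up to 5% of the calls in a list are then expected to be false. That expectation is larger than any of the shares above, but it covers a whole list and does not say where false calls lie. Whether peaks in peak-poor windows are false calls was not tested.

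H4K8la was found in nearly all peak-poor windows. At least 1 H4K8la peak was found in 255 of the 261 windows, whereas H3K9la was found in 129 and H4K16la in 118. In the other windows each mark was found in more than 99% of windows. No peak-poor window had more than 7 peaks of H4K8la lactate, 5 of H4K8la control, or 3 of any other library. The choice allowed 8 peaks per window at most, so these low maxima do not show how evenly the peaks were spread. H4K8la had more peaks than either other mark in 219 of the 261 windows (83.9%), and over all windows this held for 35.1%. In 83 windows it was the sole mark, which 3.37% of all windows were, and no window outside the peak-poor ones. A low total makes such windows easier to meet. Among the 10 chromosomes with at least 50 peaks in peak-poor windows, the H4K8la share ran from 66.7% on chromosome 9 to 83.1% on chromosome 13. On chromosomes with fewer such peaks it ran from 28.6% on chromosome 17 (7 peaks) to 86.0% on chromosome 11 (43 peaks).

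The H4K8la share followed the density of peaks. With all windows ordered by their total and cut into 10 classes of similar size, it was 73.0% in the peak-poor class, 48.2% in the next (9 to 28 peaks), 37.2% in the third and between 31.6% and 34.1% in the remaining 7. The windows next to the threshold are given for description. In the 33 windows with 8 peaks H4K8la made up 68.9% (63.1 to 74.2), and in the 25 windows with 9 peaks 60.0% (53.5 to 66.2).

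**Figure D2:**
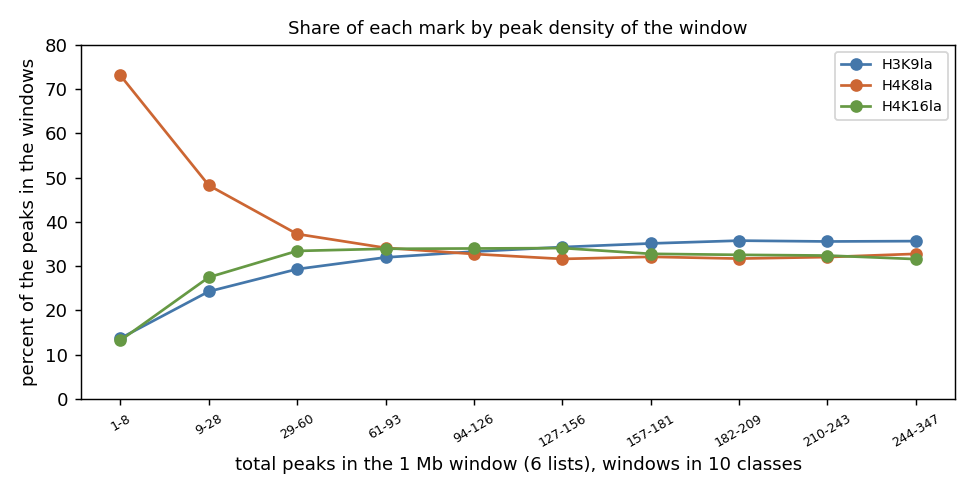
Each point is the percent of peaks that belong to a mark, both conditions together, in 1 of 10 classes of the 1 Mb windows ordered by total peaks (the horizontal axis gives the range of totals). H4K8la goes from 73.0% in the peak-poor windows to 48.2% and 37.2%, while the 3 marks lie close together in the denser windows.

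Since H4K8la peaks enter the total that chose the windows, the share was also computed with windows chosen by other lists. In the 248 windows that were lowest by the 4 lists of H3K9la and H4K16la, H4K8la made up 65.5% (63.2 to 67.7), but that choice raises the H4K8la share by construction and supports nothing. In the 258 windows that were lowest by the H4K8la lists alone, a choice that lowers the share by construction, it made up 59.4% (56.8 to 61.9), against 32.9% of all peaks.

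Lactate and control numbers were split differently in peak-poor windows than elsewhere, and for H3K9la and H4K8la in the opposite direction. H3K9la had 53 peaks in control and 119 with lactate, a log2 ratio of 1.17 (0.70 to 1.63), while in the other windows it had 60838 and 45610, a log2 ratio of −0.42 (−0.43 to −0.40). H4K8la had 368 and 548, a log2 ratio of 0.57 (0.38 to 0.76), against 59572 and 40969 elsewhere, a log2 ratio of −0.54 (−0.56 to −0.52). H4K16la had 81 and 85, a log2 ratio of 0.07 (−0.37 to 0.51), against 39589 and 60955 elsewhere, a log2 ratio of 0.62 (0.60 to 0.64). Peaks called with lactate were thus more numerous than control peaks for the first 2 marks where peaks were scarce and less numerous where they were common. For H4K16la the interval in peak-poor windows includes equal numbers, whereas in the bottom 20% of windows its log2 ratio was 0.49 (0.33 to 0.65).

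The difference between the log2 ratios, peak-poor minus other windows, was 1.58 (1.12 to 2.05) for H3K9la, 1.11 (0.92 to 1.31) for H4K8la and −0.55 (−0.99 to −0.11) for H4K16la. The interval left out 0 for each mark, but this is no test. It treats peaks as independent and takes no account of the spread between libraries, which 1 library per group cannot give. The same counts also entered the total that chose the windows, and the interval does not allow for that choice. For H4K16la the interval included 0 with the bottom 5% of windows (−0.62, −1.41 to 0.16), the bottom 20% (−0.13), equally weighted lists (−0.35), and at −log10 p of at least 4 (−0.31) or 5 (−0.12). Among peaks that reach a −log10 q of 5 the difference was 0.11. Since both lists of a mark enter the total, windows were also chosen without the mark in question. H3K9la then had 85 and 158 peaks (log2 ratio 0.89, 0.52 to 1.27), H4K8la 446 and 679 (0.61, 0.43 to 0.78) and H4K16la 126 and 143 (0.18, −0.16 to 0.53). The differences from the remaining windows were then 1.31, 1.15 and −0.44, with the same signs.

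The ratios moved gradually with density. For H3K9la the log2 ratio was 1.17 in the peak-poor class, 0.32 in the second, −0.05 in the third and −0.50 in the densest. For H4K8la it was 0.57, 0.47, −0.11 and −0.72. For H4K16la it was 0.07 in the peak-poor class, highest in the fourth (0.80) and 0.49 in the densest. Inside the peak-poor group, the windows with 1 to 4 peaks gave a log2 ratio of 1.96 (0.92 to 2.99) for H3K9la and those with 5 to 8 peaks 0.93 (0.41 to 1.46), with overlapping intervals. H4K8la gave 0.50 and 0.60. In the windows with 8 peaks the log2 ratio of H4K8la was 0.64, and in those with 9 peaks 0.63.

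**Figure D3:**
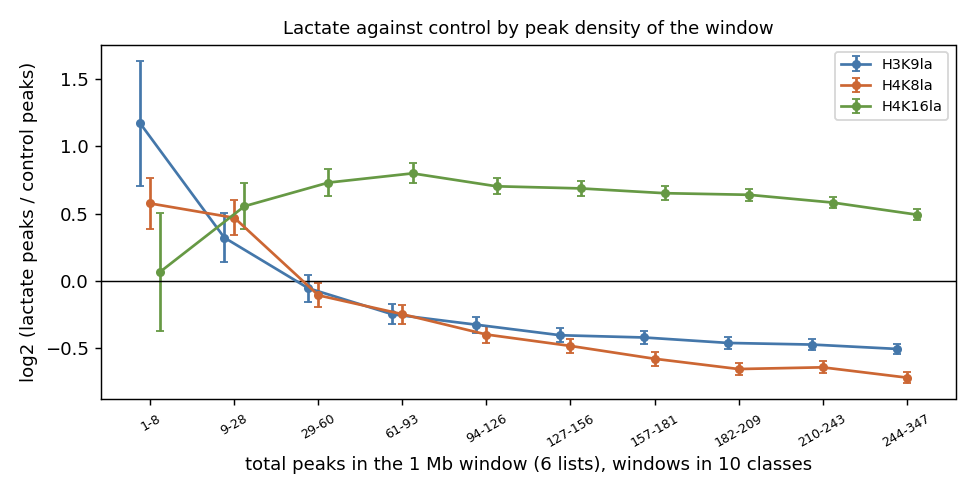
Points give the log2 ratio of lactate to control peak numbers for each mark in 10 classes of windows ordered by total peaks, and bars the 95% counting interval. H3K9la and H4K8la lie above 0 in the 2 sparsest classes and below 0 in the denser ones, and H4K16la lies above 0 throughout, with an interval that includes 0 in the peak-poor class.

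Counted by window, lactate exceeded control in 84 of the 129 peak-poor windows with an H3K9la peak (65.1%), where over all windows with the mark this held for 21.5%. It was lower in 32 (24.8%), against 72.5% over all windows. For H4K8la, lactate exceeded control in 135 of 255 windows (52.9%), against 20.3% over all windows, and was lower in 68 (26.7%), against 72.1%. For H4K16la, lactate exceeded control in 53 of 118 windows (44.9%), against 87.8% over all windows, and was lower in 50 (42.4%), against 7.9%. Of these 118 windows, 48 had H4K16la peaks with lactate only and 44 in control only. For H3K9la these were 80 and 31 of 129 windows, and for H4K8la 55 and 29 of 255. With so few peaks per window, the percentages cannot be compared in size with those over all windows. How far the low density alone moves them was not tested. By chromosome, the H3K9la count was higher with lactate on 15 of the 19 chromosomes and the H4K8la count on 16. The H4K16la count was higher on 9, lower on 7 and equal on 3. Some chromosomes had very few peaks of a mark, such as chromosome 17 with 1 H3K9la peak in control and 0 with lactate. No count by chromosome is given for the other windows, so these numbers are only a description. Chromosomes come from the same libraries and are not replicates.

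At −log10 p of at least 4 and full depth, the log2 ratio in peak-poor windows was 1.23 for H3K9la, 0.75 for H4K8la and 0.30 for H4K16la. Matching the depth of a mark's libraries at this threshold moved all 3. When the summits of the deeper library of each mark were thinned to the background of the shallower, the log2 ratio was 1.81 (1.20 to 2.43) for H3K9la, 0.58 (0.36 to 0.80) for H4K8la and −0.98 (−1.59 to −0.38) for H4K16la. The difference from the other windows kept its sign for all 3 marks, at 2.05, 1.30 and −0.71. A thinned summit cannot be picked anew and regions the authors did not call stay out, which makes the count of the thinned library too low. That library was control for H3K9la and lactate for the other marks.

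Peaks in peak-poor windows were small stacks of fragments. The median summit pileup, the number of fragments over the summit, was 10 in both H3K9la libraries, 7 in H4K8la control, 9 in H4K8la lactate, 9 in H4K16la control and 13 in H4K16la lactate. In the other windows the medians were 18 and 15, 13 and 12, and 13 and 17 in the same order. The highest summit in any peak-poor window had 31 fragments, whereas summits elsewhere reached 401. The lowest summit called over the genome-wide background was 6 fragments in H4K8la control, 7 in H4K8la lactate and H4K16la control, 8 in both H3K9la libraries and 10 in H4K16la lactate. The smallest stack was thus accepted in the library with the lowest background.

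The share of H4K8la was counted again under common thresholds. At a −log10 q of at least 5 it was 53.1% (39.4 to 66.3) of 49 peaks. Of the 79348 such peaks in the other windows, 18250 were of H4K8la control and 8398 of H4K8la lactate. At a −log10 p of at least 4 the share in peak-poor windows was 72.7% (69.8 to 75.3). It was 78.9% (76.0 to 81.5) with all 6 libraries also thinned to the lowest background. That background is the one of H4K8la control, which was not thinned, and thinning makes the counts of the other libraries too low, so the thinned value is tilted towards H4K8la. At a common −log10 p of at least 5 and full depth H4K8la made up 67.8% (63.9 to 71.5), with 86 peaks in control and 300 with lactate. The H4K8la log2 ratio was then 1.80, higher than with all peaks, and for H3K9la it was 1.77. Pileups are whole numbers, so a p threshold removes peaks in steps that fall at different places in each library. For the −log10 p thresholds and the thinned value, no share in the other windows is given here.

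Nearly all of these peaks stood on the plain genome-wide background. The local background that the caller used equalled the genome-wide value (within 1%) at 88.2% to 98.8% of the peaks in peak-poor windows across the libraries, and at 10.7% to 17.3% elsewhere. In the other windows 39721 peaks stood on the genome-wide background too. H4K8la also led among these, with 42.5% (42.0 to 43.0) against 29.3% for H3K9la and 28.2% for H4K16la, a share above its 32.7% of all peaks there and below the 73.3% (70.7 to 75.7) of the 1191 such peaks in peak-poor windows. The log2 ratio of lactate to control among them was −0.47 for H3K9la, −0.65 for H4K8la and 0.50 for H4K16la, against 1.26, 0.53 and −0.09 in peak-poor windows.

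Width and strength were lower in all 6 libraries. The median width in peak-poor and other windows was 393 and 500 bp in H3K9la control, 390 and 450 bp in H3K9la lactate, 424 and 495 bp in H4K8la control, 415 and 478 bp in H4K8la lactate, 400 and 457 bp in H4K16la control and 378 and 449 bp in H4K16la lactate. The median −log10 q, the peak caller's strength score, was 2.44 and 3.75 in H3K9la control, 2.66 and 3.25 in H3K9la lactate, 2.00 and 3.64 in H4K8la control, 2.60 and 3.16 in H4K8la lactate, 2.64 and 3.30 in H4K16la control and 2.56 and 3.41 in H4K16la lactate. H4K8la control had the lowest median in peak-poor windows and one of the highest elsewhere, and its gap was the widest of the 6. Of the 1254 peaks, 49 (3.91%) reached a −log10 q of 5, against 25.7% of all peaks, and 5 (0.399%) reached 10, against 4.96% of all peaks. Peaks of at least 1000 bp numbered 4. They were 0% to 1.89% of the peaks of a library in peak-poor windows, against 3.30% to 11.3% elsewhere.

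**Figure D4:**
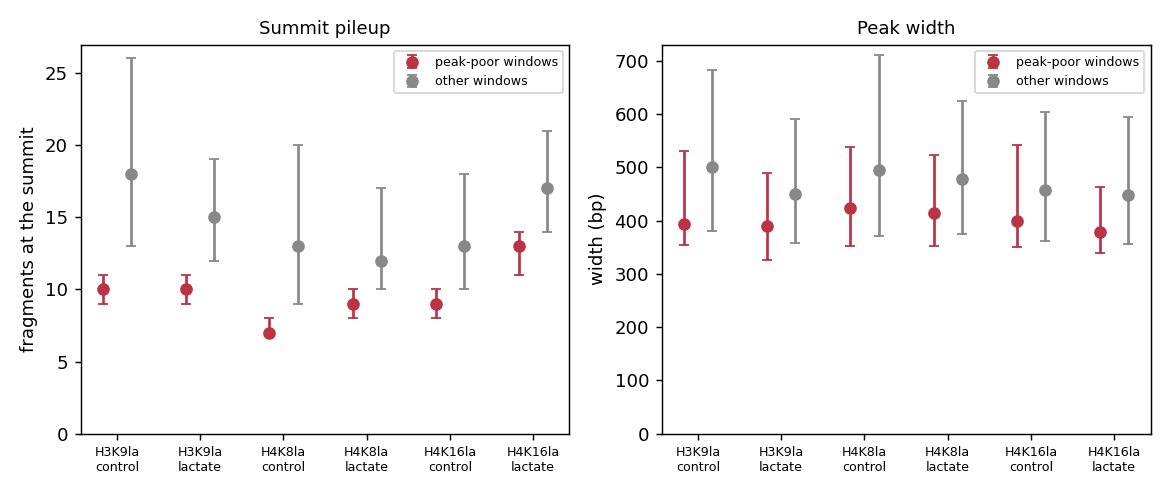
Points give the median and bars the quartiles of the summit pileup (left, fragments) and the peak width (right, bp) in each library, in red for peak-poor and in grey for other windows. Peak-poor medians lie below the others in all 6 libraries, from 7 to 13 fragments and from 378 to 424 bp.

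The fold over local background behaved otherwise. Its median in peak-poor and other windows was 3.47 and 3.46 in H3K9la control, 3.82 and 3.68 in H3K9la lactate, 3.93 and 3.88 in H4K8la lactate, 3.95 and 3.91 in H4K16la control and 3.38 in both for H4K16la lactate. H4K8la control was the exception, with 3.45 and 3.88. The fold divides by the local background, which was lower under peaks in peak-poor windows, so a weaker peak by pileup and by q can have an equal fold.

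Few peaks in peak-poor windows recurred between libraries. Peaks of all lists were merged into regions wherever they overlapped by at least 1 bp. Of the 1213 regions in peak-poor windows, 1186 (97.8%, 96.8 to 98.5) held a peak of a single library, against 66.0% (65.8 to 66.2) of the 170539 regions elsewhere. H4K8la lactate alone accounted for 525 of the regions and H4K8la control alone for 359. Although H4K8la had 916 peaks in these windows, only 7 regions had a peak in both its libraries. The share of peaks that overlapped a peak of the same mark in the other condition was 1.90% for H4K8la control and 1.28% for H4K8la lactate, against 30.0% and 43.8% elsewhere. For the other marks it was 2.52% to 5.66%, with 3 overlapping peaks in each library, against 28.0% to 46.3% elsewhere. A library had 0.203 to 2.10 peaks per peak-poor window and 18.0 to 27.7 per other window, and how much this density alone sets the overlap was not tested.

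**Figure D5:**
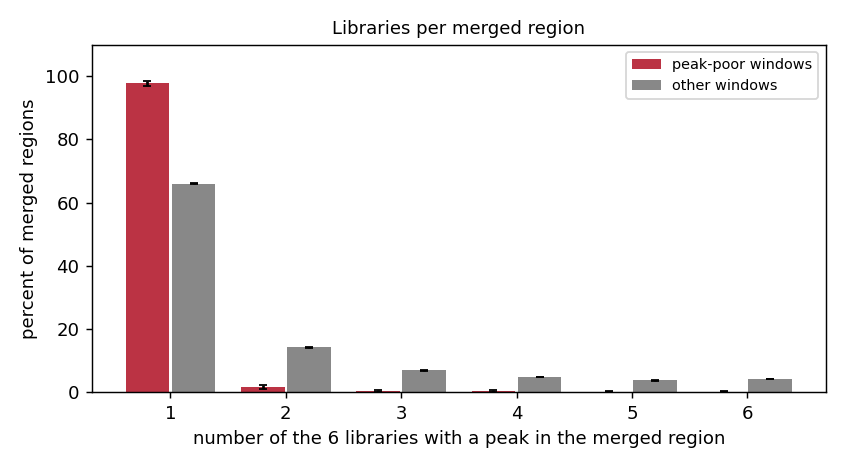
Bars give the percent of merged regions with a peak in 1 to 6 of the libraries, in red for peak-poor and in grey for other windows, with 95% counting intervals. In peak-poor windows 97.8% of the regions came from 1 library, against 66.0% elsewhere.

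Of the 1213 regions in peak-poor windows, 1 (0.0824%) was called in all 6 libraries, against 7201 of 170539 (4.22%) elsewhere. It lay on chromosome 2 from 1018774 to 1019716 (943 bp), in a window with 7 peaks. Control and lactate gave a −log10 q of 12.4 and 6.02 for H3K9la, of 14.1 and 5.32 for H4K8la, and of 4.02 and 6.20 for H4K16la. The score was lower with lactate for H3K9la and H4K8la and higher for H4K16la. Scores of different lists depend on depth and cannot be read as levels. No region in a peak-poor window was called for all 3 marks in 1 condition and for none in the other. No share of such regions elsewhere is given here, so their absence is only a description.

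The strongest peak of the peak-poor windows belonged to H4K8la control, on chromosome 2 from 73364903 to 73365370, with 31 fragments at its summit and a −log10 q of 25.8, and no other library had a peak there. It lay in the last window of the 11-window run on that chromosome. H4K16la lactate was next, on chromosome 3 from 164707753 to 164708315 (28 fragments, −log10 q 14.4), a region that both H4K8la libraries and H4K16la control shared. The strongest H3K9la control peak was the one called in all 6 libraries. That of H4K8la lactate lay on chromosome 5 from 568101 to 568703 (20 fragments, −log10 q 9.77) and was shared by both H3K9la libraries and H4K16la lactate, but not by H4K8la control. The strongest peaks of H3K9la lactate, on chromosome 4 from 137340102 to 137340754 (−log10 q 6.80), and of H4K16la control, on chromosome 17 from 59840871 to 59841449 (5.59), were found in no other library.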

How the data were processed

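CUT&Tag peak lists of 6 libraries were used, grouped by their titles, which match the treatment characteristic (a free-text protocol entry gives lactate for every library). The submitters' processing notes name rn7 as the build and list MACS2, Bowtie2, cutadapt, deepTools and FastQC. No version, setting or use of IgG in peak calling is given in the sources used here. Every list was called on its own library. The deposited columns hold a score, a fold (ratio of summit pileup to local background), −log10 p and −log10 q per peak, all made by the authors. They describe single peaks within their own list.

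The lists hold no read totals. Summit pileup and local background were recovered from the deposited fold, read as (pileup + 1) over (background + 1), and the −log10 p, read as a Poisson upper tail, to within 0.002. This held for every peak on chromosomes 1 to 20 but 1 in H4K16la lactate, and is inferred from the values. The most frequent local background was taken as the genome-wide one. Depth matching used the binomial chance that a thinned summit stays past −log10 p of 4. Intervals are Wilson 95% intervals, or Wald intervals for differences of log2 ratios. PCR copies and overlapping fragments are not independent.

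Named regions are the 3 longest runs, the strongest peak per library, and regions called in all 6 libraries or in all 3 marks of 1 condition. The windows, lists and comparisons were chosen with earlier results of these data known. Scripts were tested on simulated data. Peaks on X and Y were left out of the main counts. The software was Python 3.11.15 with scipy 1.17.1, pandas 2.3.3, numpy 2.4.6 and matplotlib 3.10.9.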

Additional observations from a re-analysis of the deposited data

Results flagged for a closer look

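In peak-poor windows the log2 ratio of lactate to control peak numbers was 1.17 for H3K9la and 0.57 for H4K8la, while in the other windows both were below 0, at −0.42 and −0.54. Both results drew attention because the same contrast ran in opposite directions in the 2 kinds of windows. The difference was not tested over samples, because there was 1 library for each mark and condition.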

How the results depend on the processing

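No paired analysis was possible because each group is 1 library and no test was made. Of 114 recomputed values, 91 stayed within the counting interval of the reported value (or within 1.5 times a count of libraries). The 91 include counts of libraries (9 for overlap, 7 for q and 7 for width), which this rule could hardly fail. They also include 12 values of the H4K16la difference, whose interval was wide. The tally is therefore no measure of how firm the results are. Median width, median −log10 q and overlap were lower in peak-poor windows in 6 of 6 libraries under the other window choices (share, shift, size, equal weights, chromosome ends) and, for overlap, its other definitions. At −log10 q of at least 5 this held for 5 libraries for width and overlap and 6 for q. The remaining alternatives were not run for these counts. The bottom 5% gave a log2 ratio of 1.78 for H3K9la, a difference from other windows of 2.19 and an H4K8la share of 78.4%. The bottom 20% gave 0.44, 0.86 and 54.1%, and 0.49 for H4K16la. At −log10 q of at least 5, with 5 to 17 peaks per library, the ratios of H3K9la, H4K8la and H4K16la were 0, 0.92 and 0.68, their differences 1.03, 2.04 and 0.11, the last of opposite sign, and the H4K8la share 53.1%. The intervals at so few peaks include 0 except for the H4K8la difference. Depth matching gave 1.81 for H3K9la and −0.98 for H4K16la, and thinning all libraries an H4K8la share of 78.9%. At −log10 p of at least 5 the ratios were 1.77 for H3K9la and 1.80 for H4K8la, the differences 2.19 and 2.31, and the share 67.8%. Windows chosen by the lists of the other marks gave a share of 65.5%, and those chosen by H4K8la alone 59.4%. The cause of these moves was not tested. The −log10 p thresholds, every alternative for the H4K8la share, and the counts without chromosome 13 were chosen after seeing the data. The share without chromosome 13 was 71.6%.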

Other observations

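The X chromosome was not part of the choice of windows. Of its 153 windows with a peak, 27 (17.6%) had 8 peaks or fewer, and these held 147 peaks. H4K8la made up 61.2% (53.2 to 68.7) of them, against 37.5% (36.3 to 38.6) in the 126 denser X windows. H3K9la made up 10.9% and H4K16la 27.9%, against 26.3% and 36.2%. The sparse X windows had 34 H4K8la peaks in control and 56 with lactate, a log2 ratio of 0.72 (0.11 to 1.33), against −0.19 in the denser ones. H3K9la had 3 and 13, a log2 ratio of 2.12 (0.41 to 3.82), against −0.17. H4K16la had 16 and 25, a log2 ratio of 0.64 (−0.25 to 1.53), against 0.58. These windows come from the same 6 libraries as the autosomal ones and share their depth and thresholds, so they are no replicate.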
